A study of Homo sapiens with 6 samples.

Results

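The flanks of CpG-dense stretches of the human genome were examined by whole-genome bisulfite sequencing of the established human embryonic stem cell line H9. A CpG-dense stretch was a merged run of 200-bp spans, each starting at a CpG and holding 16 or more CpGs, on chromosomes 1 to 22 of the GRCh37 sequence. A shore was the sequence from 0 to 2 kb from an edge of a stretch, and a shelf the sequence from 2 to 4 kb, both outside every stretch. The 44850 stretches had 83721 shore sides and 59359 shelf sides with at least 1 methylation call. These 143080 flanks were part of 1409691 autosomal regions, which also held the stretches themselves and the windows of 2 kb farther away. Shores held 2370933 CpGs, 9.22% of the 25715826 autosomal CpGs seen, and shelves held 1382346, or 5.38%. Stretches held 8.99% and the sequence over 4 kb from every stretch 76.4%.

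Conventional cells (3 libraries) were grown with 10 ng/ml bFGF and 20% KSR, a serum replacement. Reset cells (3 libraries) were derived from H9 carrying NANOG and KLF2 transgenes driven by doxycycline, and about 2 weeks after induction they were moved to t2iL+Gö. That medium holds 1 μM of the GSK3 inhibitor CHIR99021, 1 μM of the MEK inhibitor PD0325901, LIF and 5 μM of the protein kinase C inhibitor Gö6983. Both groups were kept on mouse embryonic fibroblast feeders and at 5% oxygen. The medium, the resetting and the history of the cells change together between the groups and cannot be told apart. All libraries come from 1 cell line, and the paper calls the libraries of a group biological replicates, while the labels do not say what was repeated, so each test measures only the spread between these libraries. No batch is named in the labels. Per library, 70329213 to 98004161 calls were deposited, which gave 2.53 to 3.496 calls per autosomal CpG, with the Conventional libraries deeper. At this depth no single CpG is given a value, and each level pools many CpGs.

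Methylation of the cytosine in a CpG is copied to the new DNA strand after replication by DNMT1, with its partner UHRF1, and set up anew by DNMT3A and DNMT3B. TET enzymes oxidize it, which opens a route to its removal. Most CpGs of a mammalian genome are methylated, but CpG-dense stretches at gene starts, called CpG islands, usually are not, and the methylation level climbs across the shore around them. Other dense stretches, many of them in gene bodies or repeats, are methylated like the rest of the genome, so their shores have no such slope.

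A set of 4 flanks is printed first, as examples of the sequence of single shores described below. Whether the sequence of these flanks bears on their levels was not tested. Each is 300 bases of GRCh37, plus strand, running from 200 bases of shore into 100 bases of the stretch or in the opposite order, with every CpG in capitals. None of them overlaps an annotated exon. The first pair lies beside stretches with hardly any methylation in Conventional, and the level of the whole shore was higher in Reset. In the first 200 bp at EN1, with 25 Reset calls in all, the Conventional libraries had 9.30, 6.90 and 3.57% and the Reset libraries 0, 63.6 and 69.2%, so the groups overlapped there. The first, at chr2:119606431-119606730, holds part of a shore whose nearer end is 960 bp from the start of EN1, a homeobox gene of brain patterning. The second, at chr10:8078045-8078344, holds part of a shore whose nearer end is 17971 bp from the start of GATA3, a zinc finger transcription factor gene.
EN1 shore: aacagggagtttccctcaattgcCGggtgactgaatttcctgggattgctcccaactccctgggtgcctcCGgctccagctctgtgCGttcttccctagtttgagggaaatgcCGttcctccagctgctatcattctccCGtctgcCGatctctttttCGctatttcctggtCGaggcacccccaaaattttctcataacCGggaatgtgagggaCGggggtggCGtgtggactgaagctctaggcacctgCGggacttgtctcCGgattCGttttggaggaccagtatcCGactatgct
GATA3 shore: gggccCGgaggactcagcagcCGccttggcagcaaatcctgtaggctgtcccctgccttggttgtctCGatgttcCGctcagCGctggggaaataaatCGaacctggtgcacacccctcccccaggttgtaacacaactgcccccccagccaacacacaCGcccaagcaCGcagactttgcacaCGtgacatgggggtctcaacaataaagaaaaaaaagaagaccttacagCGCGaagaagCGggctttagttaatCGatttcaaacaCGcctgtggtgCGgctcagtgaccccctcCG
The flank at chr21:47802682-47802981 holds part of a shore in an intron of the centrosome gene PCNT, and that shore kept most of its methylation. The flank at chr6:29648487-29648786 holds part of the shore downstream of the start of ZFP57, which encodes a zinc finger protein that guards methylation at imprinted genes. Over its full length that shore lost nearly all of its methylation. In its first 200 bp, with 34 Reset calls in all, Reset libraries 1 and 2 had 0 and 25% and the other had no call.
PCNT shore: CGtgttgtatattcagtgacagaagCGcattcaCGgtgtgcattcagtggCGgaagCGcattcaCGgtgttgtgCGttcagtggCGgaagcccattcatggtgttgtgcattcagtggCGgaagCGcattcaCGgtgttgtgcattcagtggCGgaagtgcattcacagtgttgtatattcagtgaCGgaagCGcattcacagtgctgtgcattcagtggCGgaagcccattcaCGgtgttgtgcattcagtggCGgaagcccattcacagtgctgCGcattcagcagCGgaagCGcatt
ZFP57 shore: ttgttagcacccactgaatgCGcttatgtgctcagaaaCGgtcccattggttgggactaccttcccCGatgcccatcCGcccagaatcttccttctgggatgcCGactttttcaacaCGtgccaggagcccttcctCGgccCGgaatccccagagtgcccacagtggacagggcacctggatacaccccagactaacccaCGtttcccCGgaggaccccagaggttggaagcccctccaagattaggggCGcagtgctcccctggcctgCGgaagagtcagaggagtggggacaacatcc
The 200 shore bases held 8 CpGs at EN1, 10 at GATA3, 12 at PCNT and 8 at ZFP57. The printed bases at PCNT repeat a short unit, and no annotation of repeats was used here.

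Stretches were split by their own level in Conventional, from at least 10 calls. There were 22942 stretches under 20% (51.2% of all) and 18896 over 80% (42.1%), while 2909 lay between and 103 had too few calls. Stretches under 20% were longer, with a median of 621 bp and 56 CpGs, than those over 80%, with 274 bp and 21 CpGs. The level of a stretch chose its class, so its value in Conventional is a description. Stretches under 20% had 2.22% ± 0.132 (SD, n = 3) in Conventional and 4.05% ± 0.147 in Reset. Stretches over 80% had 93.1% ± 0.388 and 37.8% ± 0.222. The flanks of the classes differed little in composition. In the first 200 bp beside stretches under 20% the GC content was 52.5% with 3.05 CpGs per 100 bp, and beside stretches over 80% it was 53.3% with 2.73. At 3800 to 4000 bp these were 44.3% with 1.203 and 44.002% with 1.25.

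Every flank region was far less methylated in Reset, and shores beside unmethylated stretches had the lowest level in both groups. A level is the share of methylated calls among all calls of a region, in percent, per library. Shores beside stretches under 20% had 55.4, 55.5 and 55.1% in the Conventional libraries and 20.7, 20.5 and 20.6% in the Reset libraries. Reset thus held 37.2% of the Conventional level there. Their shelves had 87.0, 87.0 and 86.9% against 32.4, 33.2 and 33.3%, so that 38.0% was left. Shores beside stretches over 80% had 90.1, 90.1 and 89.96% against 39.3, 39.8 and 39.997%, with 44.1% left, the largest share of these 4 regions. Their shelves had 89.0, 89.1 and 88.9% against 36.8, 37.7 and 37.9%, with 42.1% left. Over 4 kb from every stretch the means were 89.2% ± 0.0875 (SD, n = 3) and 31.1% ± 0.658, with 34.9% left. The groups did not overlap in any of these regions, and each difference had p = 0.1 in a two-sided exact permutation test, the smallest that 3 libraries against 3 allow. Each p from this test below has the same floor. Shores of the 2909 intermediate stretches lay between those of the other classes, with 79.6% ± 0.0875 and 34.2% ± 0.368.

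**Figure D1:**
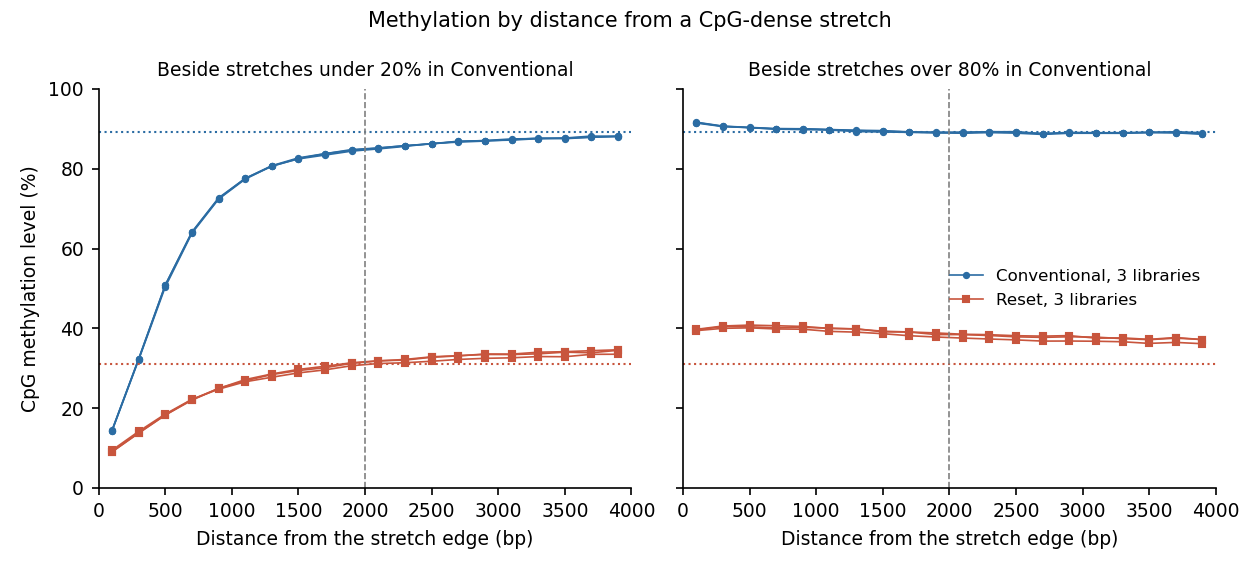
CpG methylation level in percent against distance from the stretch edge in bp, in bins of 200 bp, for stretches under 20% (left) and over 80% (right) in Conventional, with 1 line per library. Dotted lines are the group means over 4 kb from every stretch and the dashed line parts shore and shelf. On the left the Conventional lines rise from 14.3% to 88.1% and the Reset lines from 9.16% to 34.2%, while on the right the Reset lines stay above their dotted line.

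The profile beside stretches under 20% was lower and flatter in Reset. In the first 200 bp the Conventional libraries had 14.4, 14.3 and 14.2% and the Reset libraries 9.42, 9.05 and 9.004%, so that 63.9% was left. Beside the 8406 stretches with no other within 8 kb the means there were 15.6 and 7.71%, with 49.4% left. Over all stretches under 20% the share left dropped to 43.1% at 200 to 400 bp. It was lowest at 800 to 1000 bp, with 34.3%, where the means were 72.5% ± 0.153 (SD, n = 3) and 24.9% ± 0.118. From there it climbed to 38.8% at 3800 to 4000 bp. The largest loss in points, from 87.3% ± 0.150 to 33.2% ± 0.509, stood at 3000 to 3200 bp. The rise also sat farther out in Reset. The half-rise distance, at which the level first reached the middle between the first 200 bp and the mean of the shelf, was 498, 498 and 503 bp in Conventional and 632, 657 and 652 bp in Reset. Its group means of 500 bp ± 2.65 and 647 bp ± 13.2 did not overlap (exact permutation test, p = 0.1). The Reset half-rise was longer on all 22 chromosomes, and the groups did not overlap on 21 of them. The exception was chromosome 18, with means of 528 bp ± 4.66 and 585 bp ± 71.0. The shore level as a ratio to the shelf level, in contrast, was 0.637 ± 0.00190 in Conventional and 0.625 ± 0.0117 in Reset, with overlapping groups (p = 0.3, exact permutation test). For the 8406 stretches with no other within 8 kb the ratio was 0.683 and 0.618, without overlap. Among these the ratio differed by place. It was lower in Reset at the 5911 stretches at protein-coding starts, with 0.662 ± 0.00124 (SD, n = 3) against 0.556 ± 0.0111. Within protein-coding genes it was higher in Reset, with 0.705 ± 0.00227 against 0.746 ± 0.0126. At stretches outside gene starts and protein-coding genes it was higher too, with 0.790 ± 0.00121 against 0.853 ± 0.0109 (exact permutation test, p = 0.1 at each of these places). At the starts of other genes the groups overlapped, with 0.735 ± 0.00608 and 0.730 ± 0.0115. Over all stretches under 20%, the difference in the ratio turned its sign with each CpG weighted equally, to 0.00296. The first 200 bp as a ratio to the shelf mean was 0.165 ± 0.000817 in Conventional and 0.277 ± 0.0114 in Reset (p = 0.1, exact permutation test).

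Beside stretches over 80% the flank was highest away from the edge in Reset. In Conventional the level fell from 91.6% ± 0.104 (SD, n = 3) in the first 200 bp to 88.8% ± 0.198 at 3800 to 4000 bp, and its highest bin was the first in each library. In Reset the first 200 bp had 39.4, 39.6 and 39.7%, the bin at 400 to 600 bp had 40.1, 40.4 and 40.8%, and the last bin had 36.1, 37.2 and 37.2%. The highest bin of a Reset library was at 200 to 400 or at 400 to 600 bp. The shore exceeded the stretch beside it by 1.72, 1.77 and 2.23 points in the Reset libraries. In Conventional the level of the stretch had set its class, so no such comparison is made there. The shore level as a ratio to the shelf level was 1.01 ± 0.000276 in Conventional and 1.06 ± 0.00730 in Reset, with no overlap (exact permutation test, p = 0.1).

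**Figure D2:**
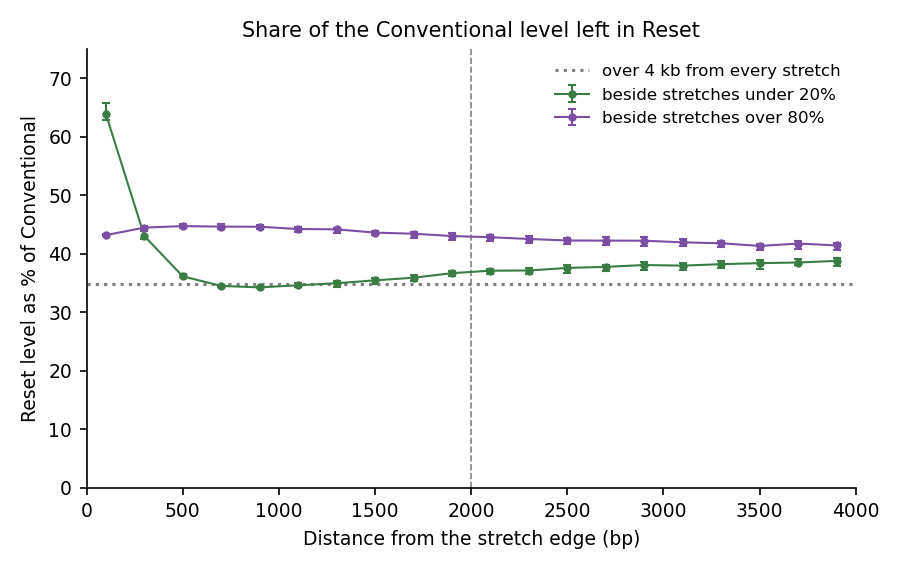
Reset level as percent of the mean Conventional level against distance from the stretch edge in bp, per class. Points use group means, and bars span the 3 Reset libraries against the Conventional mean. Beside stretches under 20% the share is 63.9% in the first 200 bp and 34.3% at 800 to 1000 bp, and beside stretches over 80% it stays between 41.4 and 44.8%.

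Distances from the sequence over 4 kb away are given in points. By these, the flanks of methylated stretches stood farther apart in Reset, and shores of unmethylated stretches stood closer. Shores beside stretches under 20% lay below that sequence, with a difference of -33.8 points ± 0.108 (SD, n = 3) in Conventional and -10.5 points ± 0.710 in Reset. The level over 4 kb away itself fell from 89.2 to 31.1%, so a gap in points can shrink with it. As a share of the Conventional level, 37.2% was left in these shores and 34.9% over 4 kb away. Beside stretches under 20% with no other within 8 kb, 33.8% was left in the shores. Shores beside stretches over 80% lay above the sequence over 4 kb away by 0.859 points ± 0.00660 (SD, n = 3) in Conventional and by 8.5997 points ± 0.310 in Reset. For their shelves this difference was -0.177 points ± 0.0245 and 6.38 points ± 0.0753. Shelves beside stretches under 20% differed from the rest by -2.28 points ± 0.0458 in Conventional and by 1.89 points ± 0.135 in Reset, a change of sign seen in every library. The group difference had p = 0.1 for each of these 4 flanks (exact permutation test). This excess of the shelves was not seen at every CpG density, counted as other CpGs within 100 bp. In Reset the shelves had 29.2% against 25.3% over 4 kb away at CpGs with no neighbour and 31.97 against 29.4% with 1 to 2, but 34.9 against 35.02% with 3 to 4 and 34.2 against 36.99% with 5 or more. Within each library the level beside stretches over 80% exceeded that beside stretches under 20% by 77.3 points ± 0.0709 in the first 200 bp in Conventional and by 30.4 points ± 0.381 in Reset. The classes were set from Conventional calls of the adjoining stretch, so the gap next to it in Conventional was partly built in. These values near the edge are a description. At 1000 to 1200 bp this class difference was 12.3 points ± 0.0457 and 12.9 points ± 0.280. At 3800 to 4000 bp it was larger in Reset, with 2.63 points ± 0.0777 against 0.708 points ± 0.178.

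CpG density varies with distance, so CpGs were also compared within classes of density, counted as other CpGs within 100 bp on either side. In every density class and region, CpGs with more neighbours kept more of their level, apart from shelves beside stretches under 20%, where 3 to 4 neighbours left 39.8% and 5 or more left 39.5%. In shores beside stretches over 80%, 36.9% was left at CpGs with no neighbour and 46.0% at those with 5 or more. Over 4 kb from every stretch these shares were 28.6 and 41.3%, and in shores beside stretches under 20% they were 32.3 and 41.0%. Within each density class the shores of methylated stretches remained above the sequence over 4 kb away in Reset. The difference was 7.36 points ± 0.234 (SD, n = 3) with no neighbour, 7.003 ± 0.158 with 1 to 2, 4.86 ± 0.253 with 3 to 4 and 4.75 ± 0.280 with 5 or more. In Conventional the same differences were between -0.00423 and 1.16 points. Groups did not overlap in any of the 4 density classes (exact permutation test, p = 0.1 each). The class of 5 or more has no upper limit. It held 622304 of 1057298 CpGs of these shores, but 4462248 of 19650804 over 4 kb away. Density within that class can therefore differ between the places, and its difference is not one at equal density.

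The shape of the shore beside unmethylated stretches depended on where the stretch lies. GENCODE genes, each with the start of its canonical transcript only, placed 11164 of the 22942 stretches at the start of a protein-coding gene. There were 1269 at the start of other genes only and 6595 within a protein-coding gene away from that start. The other 3914 lay elsewhere, which can include the bodies of noncoding genes. At protein-coding starts the shore level was 57.9, 57.9 and 57.6% in Conventional and 18.1, 17.9 and 18.1% in Reset, so that 31.2% was left. At other gene starts 39.5% was left and within genes 45.4%. Elsewhere the shores had 52.3, 52.6 and 52.2% in Conventional and 26.5, 26.6 and 26.7% in Reset, with 50.8% left. Shores at protein-coding starts were thus higher than those elsewhere by 5.44 points ± 0.137 in Conventional, and the difference was -8.56 points ± 0.109 in Reset. The first 200 bp fell from 13.4% ± 0.107 to 5.84% ± 0.157 at protein-coding starts, and had 17.2% ± 0.0349 and 16.2% ± 0.301 elsewhere, where 93.9% was left. Within genes 86.4% was left in the first 200 bp. The places also differed in how often another stretch lay near, and whether this causes differences between them was not tested. Of the stretches at protein-coding starts 52.9% had no other stretch within 8 kb, and of those elsewhere 23.6%. Among such isolated stretches the share of the shore level left was 30.8% at protein-coding starts, 38.0% at other gene starts, 41.0% within genes and 43.4% elsewhere, so the order of the places remained and its range was smaller. In their first 200 bp the order differed, with 43.1% left at protein-coding starts, 51.8% at other gene starts, 63.5% within genes and 60.4% elsewhere.

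The half-rise distance also differed by place. At protein-coding starts it was 489, 491 and 492 bp in Conventional and 720, 753 and 739 bp in Reset. At other gene starts it was 453 bp ± 4.11 (SD, n = 3) against 497 bp ± 28.1, without overlap. Within genes it was 550 bp ± 5.16 against 547 bp ± 11.99, with overlapping groups (p = 0.9, exact permutation test). Elsewhere the order was the opposite, with 498, 491 and 507 bp in Conventional and 424, 427 and 422 bp in Reset. The half-rise at protein-coding starts minus that elsewhere was -8.29 bp ± 7.69 in Conventional and 313 bp ± 15.7 in Reset (exact permutation test, p = 0.1). Among isolated stretches the half-rise at protein-coding starts was 492 bp ± 1.35 against 739 bp ± 18.1, while elsewhere it was 377 bp ± 4.54 against 373 bp ± 16.3 with overlapping groups, and within genes it was longer in Reset by 24.2 bp. The longer half-rise in Reset at other gene starts was 17.4 bp, with overlapping groups, when chromosome 7 was left out. Shelves hardly differed by place in Reset, with means between 32.8 and 33.4%. By length, 42.2% of the shore level was left beside stretches under 400 bp, 36.1% beside those from 400 bp to under 1000 bp and 35.5% beside those of 1000 bp or more.

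**Figure D3:**
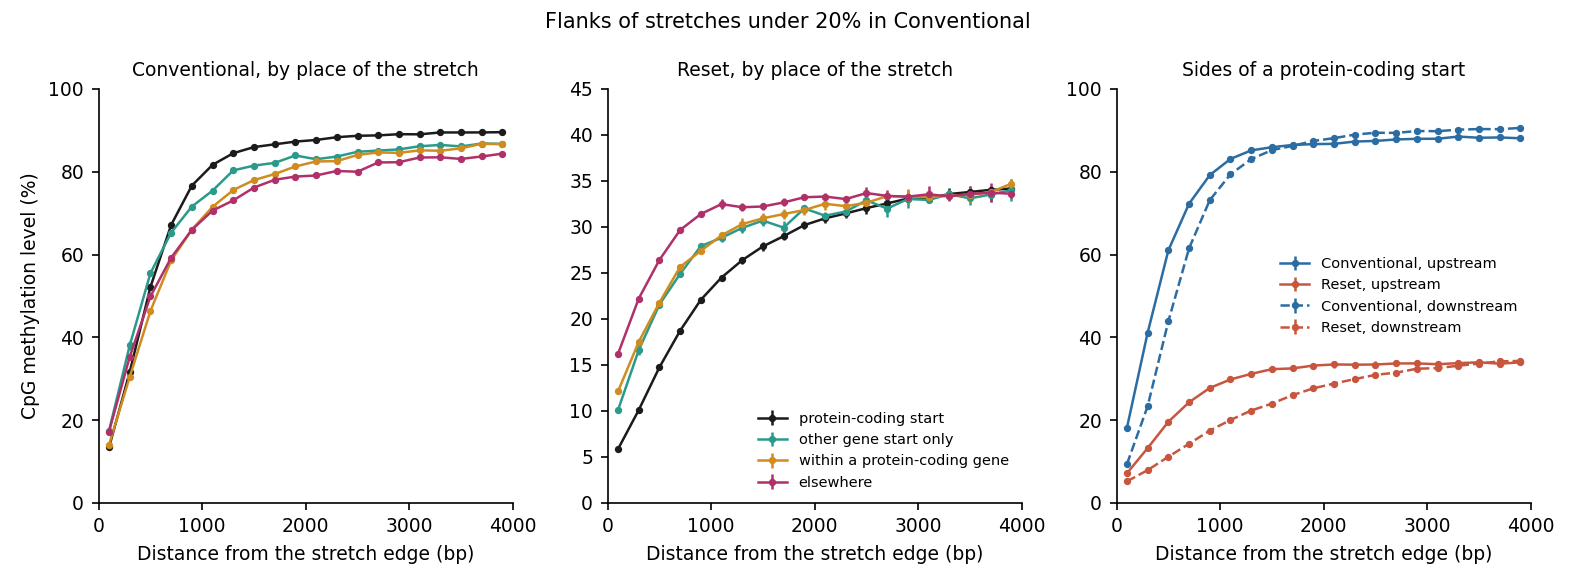
CpG methylation level in percent (mean of 3 libraries, bars SD) against distance from the edge in bp, beside stretches under 20% in Conventional, by place of the stretch in Conventional (left) and in Reset (middle, with a smaller axis range), and for both sides of a protein-coding start (right). Over the shore in Reset the lowest curve is that of protein-coding starts, from 5.84%, and the highest that of stretches elsewhere, from 16.2%, while in the shelf the curves come together and cross.

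A protein-coding start gives its stretch an upstream and a downstream side. For 10283 unmethylated stretches with the start of exactly 1 protein-coding gene, the upstream shore had 61.9, 62.1 and 61.7% in Conventional and 21.9, 21.8 and 21.9% in Reset. The downstream shore, which runs into the transcribed part of the gene, had 53.9, 53.8 and 53.6% against 15.2, 14.97 and 15.1%. The share left was 35.3% upstream and 28.0% downstream. The ratio of upstream to downstream was 1.15 ± 0.00279 (SD, n = 3) in Conventional and 1.45 ± 0.00540 in Reset, with no overlap (exact permutation test, p = 0.1). The half-rise distance upstream was 419 bp ± 0.752 in Conventional and 534 bp ± 12.1 in Reset. Downstream it was 564 bp ± 2.25 against 994 bp ± 14.6, so the difference between the sides grew from 145 bp ± 2.00 to 460 bp ± 12.8 (exact permutation test, p = 0.1). At 600 to 800 bp downstream of the edge 23.2% of the Conventional level was left, against 33.6% upstream. At 3800 to 4000 bp the sides had 34.3% ± 0.824 and 33.9% ± 0.449 in Reset, within the spread between libraries. For the 264 methylated stretches with 1 such start the ratio was 0.994 ± 0.00449 and 1.05 ± 0.0201.

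Single shores and shelves were then tested with a quasi-binomial model of the methylated and unmethylated calls, over all 1317236 stretches, flank sides and farther windows that reached 10 calls in each of the 6 libraries. Of these 97.7% were lower in Reset at an adjusted p under 0.05, 0.605% were higher, and 0.355% were raised, which also required a rise of 10 points or more and no overlap between the groups. Of 41897 shore sides beside stretches under 20%, 35524 were tested. There 29650 (83.5%) were lower, 2371 (6.67%) were higher and 3503 were not called. With 6.67 against 0.605%, higher calls took a larger share here than over all regions, which are mostly far from stretches. Among the stretches under 20% themselves 21.7% were higher and 10.2% raised. These were classed by the same Conventional calls that the test uses, so their shares are a description and no comparator. The raised sides numbered 1817, or 5.11%. Beside stretches over 80%, 32136 of 36222 shore sides were tested and 99.8% were lower, while 10 were higher and 6 raised. Without Conventional replicate 2 the raised sides there numbered 10, and without Reset replicate 1 they numbered 11. Shelves beside stretches under 20% were lower in 98.5% of 27970 tested sides and raised in 130 (0.465%), and shelves beside stretches over 80% were lower in 99.7% of 24857 and raised in 9. The median tested shore side beside stretches under 20% had 316 calls over the Conventional libraries and 271 over the Reset libraries. Its median level was 60.6% in Conventional and 20.5% in Reset.

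**Figure D4:**
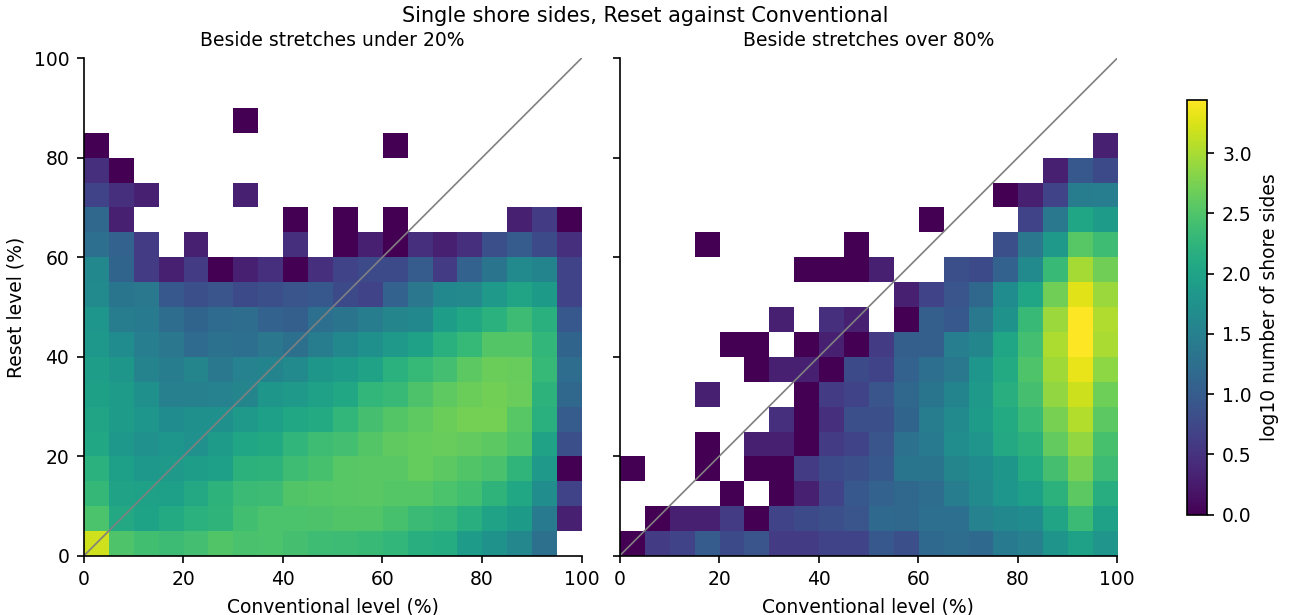
Mean Reset level against mean Conventional level in percent for tested shore sides beside stretches under 20% (left) and over 80% (right), in squares of 5 by 5 points, with the number of sides as log10 in colour. The grey line marks equal levels. Most sides lie below the line, and most of the 1817 raised sides form the columns above it at low Conventional levels on the left.

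The raised shores were sides with little methylation in Conventional. Their median level was 5.34% in Conventional and 34.6% in Reset, with quartiles of 2.38 and 10.9% against 25.3 and 44.8%. They belonged to 1529 stretches, and in 288 both sides were raised. The stretch beside 1084 of the 1817 sides (59.7%) was raised as well, while 3229 of all tested sides beside stretches under 20% had a raised stretch and 31587 had a tested stretch that was not raised. By place, 1.15% of 19346 tested sides at protein-coding starts were raised, 3.75% of 1921 at other gene starts, 9.18% of 8712 within genes and 13.0% of 5545 elsewhere. Raised sides were far more frequent where dense stretches lie close together. Of 18889 tested sides beside the 14536 unmethylated stretches with another stretch within 8 kb, 1728 (9.15%) were raised, and of 16635 sides beside the 8406 isolated ones 89 (0.535%). This held at each place, with 18.7 against 1.02% elsewhere and 2.36 against 0.373% at protein-coding starts. A side ends midway to the next stretch where that comes before 2 kb, so sides with a close neighbour can be shorter. The sides were not matched for length or for Conventional level. By their own Conventional level, 33.3% of 3924 sides under 10% were raised and 7.24% were lower, whereas 357 of 1553 sides at 10 to 20% (22.99%) and 148 of 4416 sides at 20 to 40% (3.35%) were raised. Of 25631 tested sides above that level, 6 were raised. A side near 0 has no room for a fall, so this split describes the sides and tests nothing.

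The 5 largest rises among shore sides with at least 20 calls in every library lay near EN1, GATA3, HAND2 and SPHKAP. The shore at chr2:119606184-119606630, 960 bp from the start of EN1, had 5.88, 6.90 and 1.54% in Conventional and 69.8, 71.4 and 81.5% in Reset (adjusted p = 7.7e-12). A second shore, 13308 bp from the same start and within the noncoding gene LINC01956, had 3.12, 2.27 and 0% against 76.1, 54.2 and 74.3%. The sides with the largest rises were chosen for their rise and for groups that do not overlap, so these values are a description. The shore 17971 bp from GATA3, at chr10:8078145-8078680, had no methylated call among 98 in Conventional, and 70.8, 73.1 and 71.4% in Reset (adjusted p = 3.25e-11). A count of 0 among 98 allows a level of up to 3.06%, which covers counting error only and takes calls as independent, although these come from 21 CpGs and 1 read can carry several. At chr4:174449382-174449914, in HAND2, a basic helix-loop-helix gene of heart and limb development, the levels were 1.45, 3.85 and 4.29% against 82.1, 79.5 and 47.4%. The spread between the Reset libraries was wide there, with an SD of 19.3 points. The largest rise was downstream of the start of SPHKAP, at chr2:229045912-229046324, with 0, 0 and 5.00% against 53.5, 84.6 and 92.0%. The stretches beside the shores near EN1, GATA3 and SPHKAP were also methylated in Reset, with 68.2% ± 14.5 (SD, n = 3), 60.5% ± 13.2 and 53.7% ± 21.3, and that at HAND2 was not, with 8.18% ± 0.707.

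Of the 5 largest falls, 3 are described here, and each lay beside a methylated stretch, with no Reset library above 2.63%. In an intron of SNRPC, a gene of the U1 spliceosome particle, the shore had 100, 100 and 97.6% against 0, 1.75 and 0%. In an intron of SAE1, which encodes a subunit of the SUMO-activating enzyme, it had 95.6, 98.2 and 100% against 1.39, 0 and 0%. The third, on chromosome 19 in the noncoding gene ENSG00000269842, had 100, 100 and 94.9% against 2.63, 0 and 1.59%. The sides were chosen for their fall and for groups that do not overlap, so these values are a description.

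Shores that kept their methylation were rare. Among 32725 shore sides at 80% or more in Conventional with at least 30 calls in every library, those of chromosome 8 left out, the median share left was 43.99%, with quartiles of 34.2 and 51.7%. Only 7 kept over 80%, whereas 625 kept under 10%. The PCNT shore, from 779 and 626 calls, had 94.3, 95.9 and 92.5% in Conventional and 76.3, 72.6 and 84.5% in Reset. Its 49 CpGs had 175 to 283 calls per library, a deeper coverage than the 2.53 to 3.496 calls per autosomal CpG. Whether reads of several repeat copies were pooled there was not tested. In an intron of ZSWIM5 the values were 85.6, 92.1 and 85.2% against 65.7, 79.0 and 71.2%. The groups did not overlap at these, but they did at the other 3 sides with the highest share left. These lay 56993 bp from the start of FBRSL1, in KIF26B, and on chromosome 7 at 128766960 to 128767295, with 88.7, 87.4 and 85.4% left. They were chosen for these values, which are a description.

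Shores at the starts of listed genes were read next. Of 46 genes, 37 had a stretch at the start, and 54 of their 74 shore sides had enough calls. There 34 were lower in Reset, 6 were higher and 14 were not called, and the median difference is given per list below. Over all shores of unmethylated stretches at protein-coding starts, 92.5% of 19346 were lower and 1.71% higher. No stretch lay at the start of the pluripotency genes POU5F1 and NANOG.

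Among the pluripotency genes 12 sides were tested, 7 lower and 2 higher. KLF5 and TFCP2L1, transcription factor genes of the naive circuitry, had some of the largest falls. Upstream of TFCP2L1 (chr2:122043122-122045121) the shore had 86.7, 82.9 and 69.2% in Conventional and 20.7, 14.3 and 10.6% in Reset (adjusted p = 3.85e-12). Downstream it had 66.9, 68.8 and 83.1% against 1.12, 3.54 and 3.06%. Upstream of KLF5 (chr13:73630762-73632761) the values were 54.6, 67.0 and 63.3% against 3.03, 1.89 and 4.90%, and downstream the means were 22.4 and 0.308%. The upstream shore of KLF2, whose transgene drove the resetting, had means of 82.4 and 39.0%. That of SALL4, a zinc finger gene active in both kinds of pluripotent cell, had 42.5 and 19.4%. Upstream of SOX2 the level rose from 0, 1.41 and 1.05% to 4.64, 9.70 and 7.92% (adjusted p = 1.02e-05). Upstream of ZIC2 it rose from 0% in each Conventional library to 4.17, 7.14 and 4.88%.

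Of the genes that write, erase or guard methylation, 17 of 18 tested sides (94.4%) were lower and none was higher (quasi-binomial model, adjusted p under 0.05). This share is near the 92.5% over all shores of unmethylated stretches at protein-coding starts, and the sides of ZFP57 lie beside a methylated stretch, where 99.8% were lower. The side not called, downstream of TET1, was at 0% in all 6 libraries. The shores of ZFP57 fell from a methylated stretch. Downstream they had 91.9, 94.0 and 94.6% in Conventional and 3.24, 5.19 and 4.97% in Reset (adjusted p = 1.68e-18), and upstream 90.9, 90.1 and 90.9% against 30.4, 28.3 and 30.1%. Upstream shores of TET2 and TET3, which encode oxidizing enzymes, fell to 3.79 and 4.62%, from 40.3 and 29.5%. The smallest share lost in this list was downstream of the DNMT3A start, with 60.9, 51.7 and 63.2% against 35.5, 48.5 and 38.0%, still without overlap. Upstream of DNMT3A the means were 89.3 and 34.7%. The shores of UHRF1 had 89.1 and 43.2% upstream and 59.5 and 12.4% downstream.

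Among lineage genes, which specify germ layers, 2 of 12 tested sides were lower, 4 higher and 6 not called. The median Conventional level of these sides was 2.86%. Of all 3924 tested sides under 10% in Conventional beside stretches under 20%, 43.5% were higher and 7.24% lower. The counts of this list are therefore a description. Both lower sides were those of MIXL1, a homeobox gene of the primitive streak, with means of 89.9 and 33.4% upstream and 75.6 and 27.9% downstream. The shores of SOX1, a neural transcription factor gene, rose on both sides. Upstream they had 6.85, 4.35 and 2.59% in Conventional and 24.8, 13.0 and 11.8% in Reset, and downstream 4.12, 5.00 and 3.01% against 21.3, 17.5 and 24.2% (adjusted p = 1.21e-07). Upstream of ZIC1 the level rose from 0.348, 0.980 and 0.329% to 7.04, 8.83 and 3.06%. Upstream of EOMES the means were 2.69 and 8.75% with overlapping libraries (adjusted p = 0.0230), and in the same model the adjusted p was 0.0722 without Conventional replicate 2, 0.0680 without Conventional replicate 3 and 0.149 without Reset replicate 2. Over all its alternatives the adjusted p lay between 0.00831 and 0.149. Upstream of NR2F2 the Conventional libraries had 12.5, 11.9 and 13.4% and the Reset libraries 19.8, 15.5 and 21.1%, which did not pass (adjusted p = 0.0802). The tested shores of PAX6, CDX2 and GATA6 were under 4% on average in both groups and were not called, but the downstream shore of PAX6, with means of 0 and 2.78%, passed without Reset replicate 1 (adjusted p = 0.0452) or Reset replicate 3 (adjusted p = 0.0388).

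The household genes had 8 of 12 tested sides lower and none higher, but the upstream shore of TBP, with means of 0 and 1.78%, was higher without Reset replicate 1 (adjusted p = 0.0442). Downstream of RPLP0, a ribosomal protein gene, the levels were 31.3, 40.6 and 40% in Conventional and 0.806, 0.813 and 0.690% in Reset. Downstream of TBP, the TATA-binding protein gene, they were 55.8, 66.7 and 57.5% against 4.85, 2.11 and 2.17%. The upstream shores of ACTB and GAPDH were not called, with means of 14.3 and 10.9% and of 7.51 and 8.54%. Median differences between Reset and Conventional were -22.6 points for the pluripotency list, -45.5 for the methylation list, 2.01 for the lineage list and -19.9 for the household list. Over all shores of unmethylated stretches at protein-coding starts the median difference was -41.4 points. The median Conventional level was 31.2% for the pluripotency list, 59.4% for the methylation list and 21.2% for the household list. Over all these shores it was 61.9%. In Reset the medians were 4.55, 13.7 and 2.48% for these lists and 17.4% over all. A side that begins low has little room for a fall, so the differences in points only describe the lists. The lists are too short for more than these counts.

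**Figure D5:**
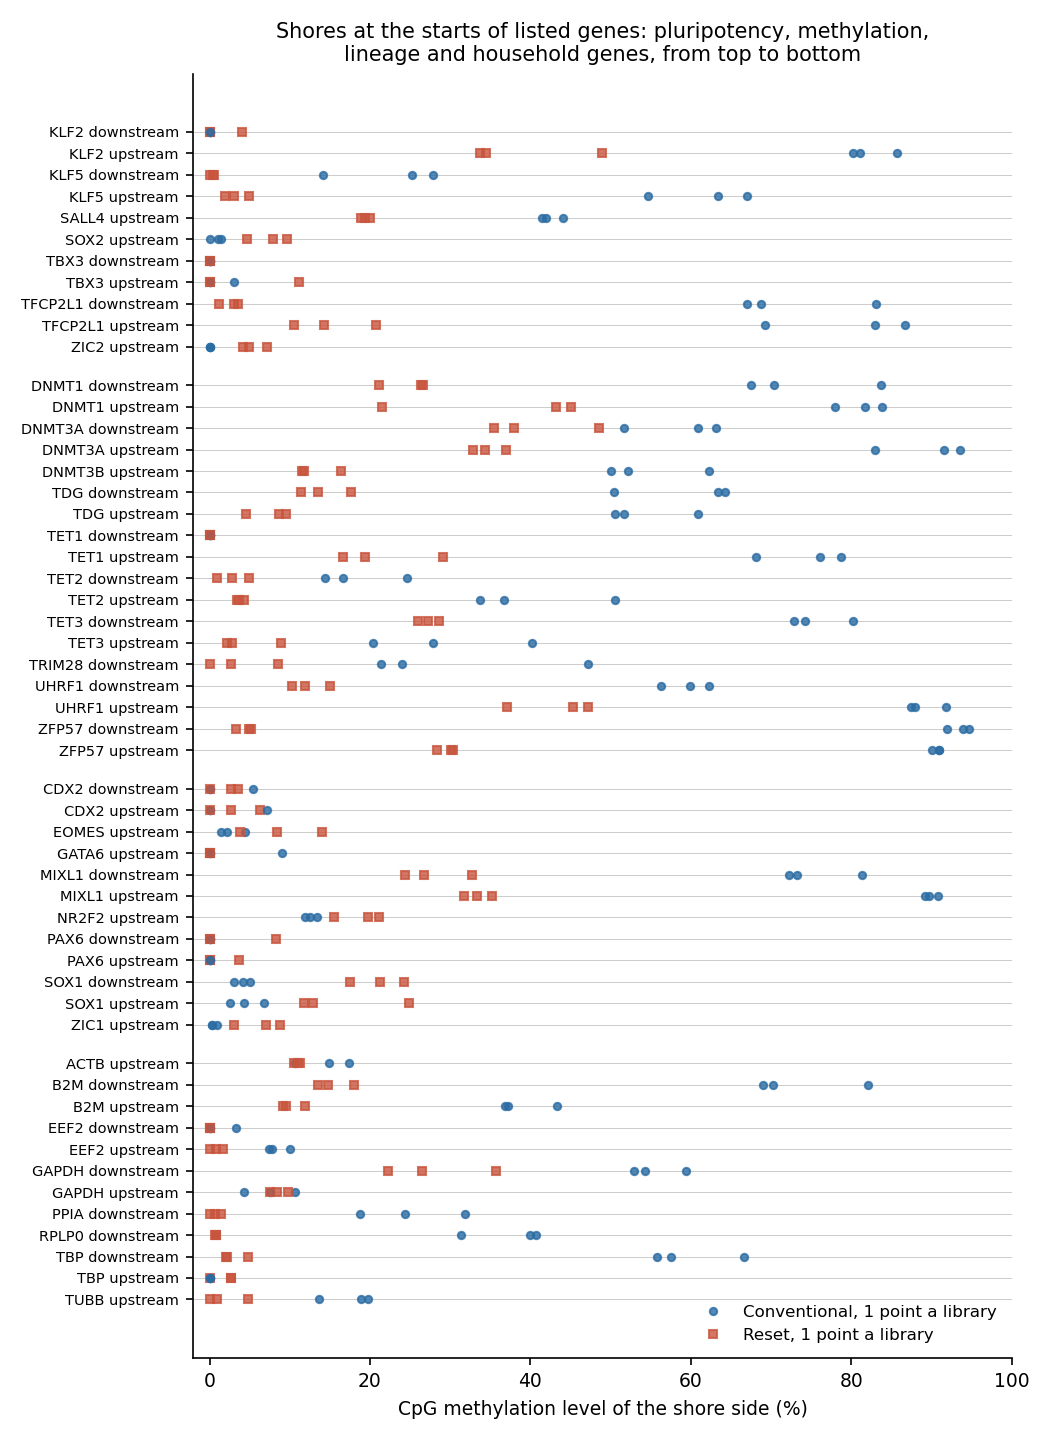
CpG methylation level in percent of single shore sides at the starts of listed genes, with 1 point per library (circles Conventional, squares Reset), upstream or downstream of the start. The methylation genes fall at 17 of 18 sides, and SOX1, ZIC1 and SOX2 show the rises from levels under 7% in Conventional.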

How the data were processed

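DNA methylation was measured by whole-genome bisulfite sequencing in 3 Conventional and 3 Reset libraries of H9. The authors sonicated the DNA, ligated methylated adapters, treated it with bisulfite, amplified it with 11 PCR cycles, used Trim Galore for trimming and Bismark for alignment to GRCh37. The submitters' processing notes name Bismark 0.9.0 with Bowtie2, while the methods of the paper name another Bismark version. Removal of duplicate reads is not stated, so calls may not be independent molecules. At each CpG cytosine the authors deposited the percent methylated beside 2 counts, of methylated and of unmethylated calls, with no normalization. Positions lay at a CpG of GRCh37, counted from 0, in 99.8% of lines per library. Printed coordinates count from 1. Mitochondrial CpGs, which are nearly free of methylation, read 0.251 to 0.420% methylated.

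Calls of both strands were summed per CpG. Each CpG outside a stretch was given to its nearest edge and to a bin of 200 bp. Stretches needed 10 calls over the Conventional libraries to be classed. Genes came from GENCODE release 44 mapped to GRCh37 (61221 autosomal genes). The start of a gene was that of its Ensembl canonical transcript, and other starts of the same gene were not used. Levels pooled all calls of a region per library, and 1 value per library entered a two-sided exact permutation test (smallest p 0.1). Single regions with 10 or more calls in every library were tested by a likelihood-ratio F test in a quasi-binomial logistic fit to the counts, with dispersions squeezed by limma 3.58.1 (R 4.3.3), kept at 1 or more, and Benjamini-Hochberg adjustment over all 1317236 regions. A region that was not called is not shown to be equal between the groups. Python 3.11.15 with scipy 1.17.1 was used. Shore sides were named by rule, namely the sides at the starts of 46 listed genes, the 5 largest rises and 5 largest falls past the threshold without overlap and with 20 or more calls in every library, and the 5 sides at 80% or more in Conventional with the highest share left and 30 or more calls. Sides on chromosome 8 are not named, and are counted except among the shores that kept their methylation, and 2 of the largest falls are not reported here. The members, lists and splits were chosen with earlier results of these data known. The splits by place, length and chromosome, and by whether another stretch lay within 8 kb for each place, were added after the values had been seen, as was the alternative without chromosome 7. Chromosomes X and Y and calls outside CpGs were not used here.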

Additional observations from a re-analysis of the deposited data

How the results depend on the processing

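Levels, ratios and half-rise distances were recomputed with each CpG weighted equally, with stretches of 12 or 20 or more CpGs per 200 bp, with classes under 10% and over 90%, for isolated stretches, without CpGs of very high coverage and without chromosome 7. Counts of single shores were recomputed with other minimum numbers of calls, Fisher's exact test on pooled calls and unsqueezed dispersions. Both kinds of result were recomputed without each library. The ratio of shore to shelf beside stretches under 20% changed sign, with a difference of 0.00296 when CpGs were weighted equally. The half-rise difference within protein-coding genes changed sign too, with 24.2 bp for isolated stretches and 0.259 bp without chromosome 7, an alternative chosen after seeing the data. Without single libraries it lay between -7.19 and 4.15 bp, and was 0.167 bp without Conventional replicate 3. The cause was not tested. No other level, ratio or half-rise distance pooled over stretches reversed under the alternatives run for it. Among single shores that were not called, those of CDX2 and the upstream shores of GAPDH and TBX3 changed sign without single libraries. Shelf sides higher beside stretches over 80% numbered 8 with unsqueezed dispersions in place of 13. Without single libraries the half-rise difference over all stretches under 20% lay between 142 and 154 bp, and the raised shore sides beside them between 1843 and 1917. No pairing by replicate number was seen. Deviations of same-numbered libraries from their group means over 72341 shore sides had correlations of 0.00100, -0.00349 and -0.00188. Such deviations hold counting error, so they cannot show whether same-numbered libraries shared a culture or a preparation. With the replicate block 1811 shore sides beside stretches under 20% were raised in place of 1817, and the paired permutation test allows no p below 0.25. Depth limited single sides, of which 84.8% of those beside stretches under 20% had enough calls.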
